A study of Mus musculus with 4 samples.

Results

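The 26S proteasome is the protease that degrades ubiquitin-tagged proteins, and its 31 constitutive subunit genes listed here were examined in Treg, the regulatory CD4+ lymphocytes that hold other immune cells in check and are specified by the transcription factor Foxp3. The genes were taken by symbol from the deposited table and comprised 14 genes of the 20S core and 17 of the 19S regulatory particle. All 31 were among the 28334 rows of the table and among the 13685 genes that entered the tests. Poly-A RNA was sequenced in 2 KO libraries and 2 WT libraries. The KO cells were Pdpk1 FL/FL and the WT cells Pdpk1 +/+, both on the C57BL/6 strain, untreated and with the Foxp3 YFP-Cre/0 genotype. In both groups Foxp3 drives a fusion of YFP and Cre from a single allele, so recombination is aimed at cells that have expressed Foxp3. Spleen and peripheral lymph nodes were the source, and cells were sorted for CD4 and YFP. Ages and the number of animals behind each library are not given in the sources used here, so p-values measure only the spread between these libraries. Pdpk1 encodes PDK1, a kinase that activates AKT and related kinases, and the series title holds that Treg function depends on it.

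The core is a barrel of stacked rings. The outer rings of alpha subunits (Psma genes) form a gate, and the inner rings of beta subunits (Psmb genes) carry the proteolytic sites on Psmb5, Psmb6 and Psmb7. The regulatory particle binds ubiquitin chains, removes them and threads the substrate into the core by means of a ring of ATPases (Psmc genes), helped by non-ATPase subunits (Psmd genes). In lymphocytes the catalytic subunits can be replaced by the immunoproteasome subunits Psmb8, Psmb9 and Psmb10.

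The deposited values are normalised log2 counts without read totals, which leaves the depth unknown. The median of all tested genes was 8.80 in each KO library and 8.77 in each WT library. Pdpk1 was at 11.78 and 11.73 in the KO libraries, against 11.71 and 11.76 in the WT libraries (log2 fold change 0.02, limma adjusted p = 0.612), which does not check the labels, since they do not say which exons are flanked by loxP sites and reads of other exons would still be counted. Foxp3 was at 11.42 and 11.47 in KO and at 11.42 and 11.38 in WT, far above the median in all 4 libraries, and was not called, that is, its limma adjusted p was not under 0.05. Of the other 6 Treg markers on the list, 4 were called higher in KO, namely Il2ra (log2 fold change 0.225), Ctla4 (0.245), Lrrc32 (0.305) and Tnfrsf18 (0.155), and 2 lower, Ikzf2 (-0.095) and Ikzf4 (-0.275). The summed linear value of the 7 Treg markers was 33013 and 33011 in KO and 30658 and 30497 in WT. Their part in the subunit values was not tested. Of 28 marker genes of B cells, myeloid cells, NK cells, CD8 T cells, erythroid cells, stroma and endothelium, 22 were tested. The marker Pecam1, at 11.23 to 11.33 in these libraries, was set apart. Of the 22, 0 were called higher and 4 lower in KO (Cd79a, Klrb1c, Col1a1 and Col1a2). Among all tested genes 27.1% were called higher and 20.3% lower, so nothing is read from the counts of Treg or other markers. Over the 27 of the 28 other markers with a row in the table, the summed linear value was 981 and 1006 in KO and 1252 and 1062 in WT. KO 1 and KO 2 thus lay below both WT libraries, and the part of these markers was not tested either.

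Transcripts of nearly the whole proteasome were slightly more abundant in KO Treg. Of the 31 subunit genes, 29 were called higher and 0 lower in KO at a limma adjusted p under 0.05, while 27.1% of all tested genes were called higher and 20.3% lower. In all 31, both KO libraries lay above both WT libraries, which was the case for 39.9% of all tested genes. The differences were small. The median log2 fold change was 0.17, a 1.12-fold difference, and single subunits ranged from 0.095 to 0.255, or from 1.07-fold to 1.19-fold. The median over all tested genes was 0.015. Each subunit stood above at least 67.6% of the tested genes by its fold change, and none stood above more than 88.2%. The narrow band of the subunits is seen in their SD over genes, which was 0.044 on the log2 scale, against 0.34 for all tested genes. The sets are unlike, since no subunit value was under 8.87. All tested genes include much lower ones, and 276 of them lay beyond 1 in absolute log2 fold change. No set of like level was compared. In bulk RNA, more transcript per cell and more cells with high levels cannot be told apart.

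**Figure D1:**
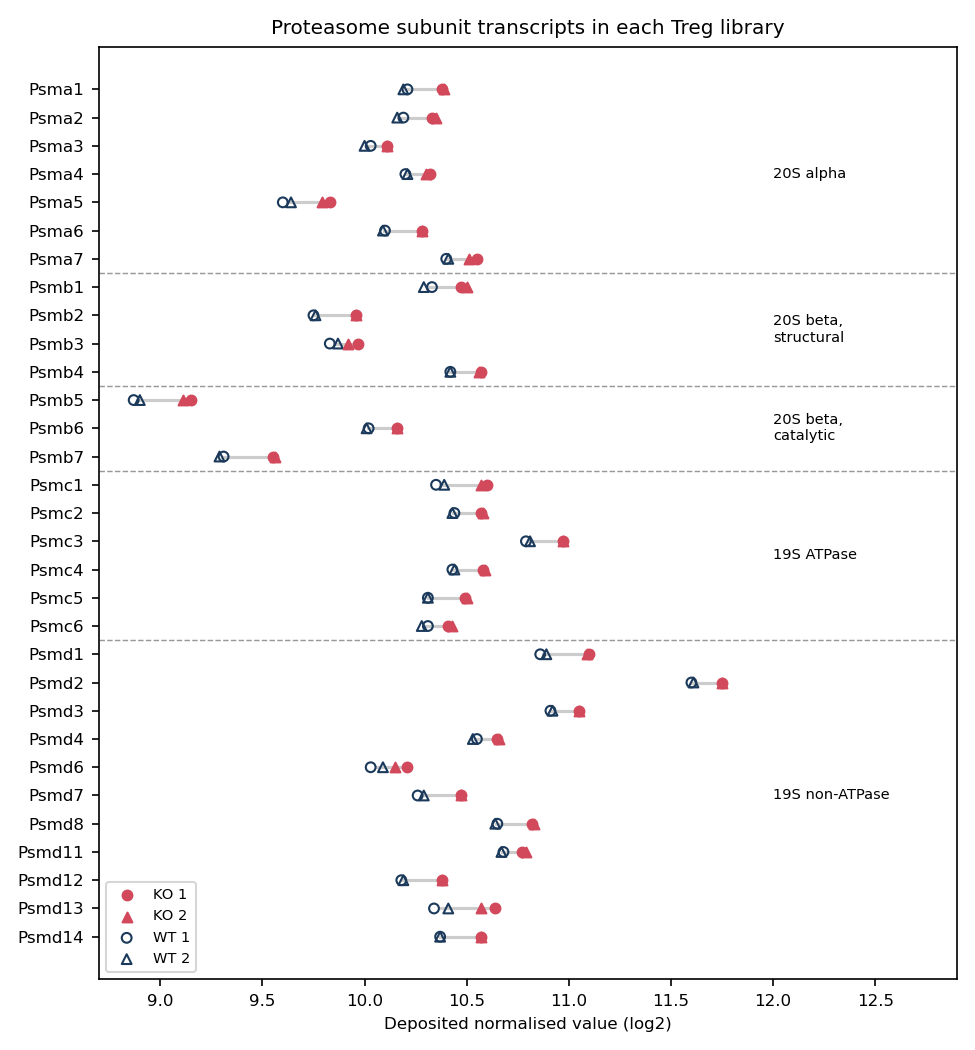
Deposited normalised log2 value (horizontal axis) of each of the 31 subunit genes (vertical axis, by subcomplex) in KO 1 and KO 2 (filled) and in WT 1 and WT 2 (open). Grey lines join the group means. In every gene both filled points lie to the right of both open points, with a gap of 0.05 to 0.24 between the nearest points.

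These calls rest on a very small spread within groups. The mean of the 2 libraries numbered 1 and the mean of the 2 libraries numbered 2 lay within 0.015 of each other on the log2 scale in all 31 subunits. Over all tested genes this gap had a median of 0.015, smaller than the median difference between KO 1 and KO 2 (0.06) or between WT 1 and WT 2 (0.05). Whether an adjustment for replicate number preceded deposit was not tested. With one, the spread within groups, the SEs and the p-values given here are too small. With the replicate number as a term, limma called 0 of the 31 subunits and 0 of all tested genes (smallest adjusted p 0.0964). In that fit 29 subunits had an unadjusted p under 0.05, as did 35.7% of all tested genes. Leaving out any 1 of the 4 libraries also ended every call, for the subunits and for all other genes, while all 31 fold changes stayed above 0 and their median was 0.155 to 0.17. At an unadjusted p under 0.05 there were 27 subunits without KO 1, 28 without KO 2, 28 without WT 1 and 29 without WT 2. The same was true of 40.8%, 41.4%, 38.2% and 39.0% of all tested genes in these fits.

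The sequences just upstream of 4 subunits, 1 from each of 4 groups of subunits, are shown so that the motifs searched in them can be read in place. They are the alpha, ATPase and non-ATPase subunits with the smallest p (Psma6, Psmc5 and Psmd14) and the catalytic subunit Psmb6. Psmb7, the catalytic subunit with the smallest p, had no entry in the promoter table. Each is the 250 bases before the RefSeq transcript start (GRCm38.p6), on the plus strand, and capitals mark matches to the 3 motifs given below. The Psma6 window lies at chr12:55398575-55398824, inside the annotated span of the gene. It is the one of 2 windows for Psma6 in the table that is nearer to the start of the principal transcript in GENCODE M21. The window of Psmb6 lies at chr11:70525107-70525356. That of Psmc5 lies at chr11:106255935-106256184 and that of Psmd14 at chr2:61711444-61711693.
Psma6: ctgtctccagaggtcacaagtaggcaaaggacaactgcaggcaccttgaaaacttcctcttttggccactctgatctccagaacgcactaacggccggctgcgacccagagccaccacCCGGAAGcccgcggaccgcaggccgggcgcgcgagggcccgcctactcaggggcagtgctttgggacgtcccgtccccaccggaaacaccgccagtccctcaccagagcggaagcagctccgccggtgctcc
Psmb6: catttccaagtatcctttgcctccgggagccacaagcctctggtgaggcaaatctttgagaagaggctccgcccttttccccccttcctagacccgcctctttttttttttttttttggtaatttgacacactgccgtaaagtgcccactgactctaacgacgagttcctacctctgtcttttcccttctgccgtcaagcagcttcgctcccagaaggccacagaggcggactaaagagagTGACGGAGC
Psmc5: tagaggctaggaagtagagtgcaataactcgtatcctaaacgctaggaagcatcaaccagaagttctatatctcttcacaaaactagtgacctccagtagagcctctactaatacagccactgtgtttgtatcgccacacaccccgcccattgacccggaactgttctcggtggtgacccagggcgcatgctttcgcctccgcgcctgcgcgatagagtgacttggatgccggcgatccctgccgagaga
Psmd14: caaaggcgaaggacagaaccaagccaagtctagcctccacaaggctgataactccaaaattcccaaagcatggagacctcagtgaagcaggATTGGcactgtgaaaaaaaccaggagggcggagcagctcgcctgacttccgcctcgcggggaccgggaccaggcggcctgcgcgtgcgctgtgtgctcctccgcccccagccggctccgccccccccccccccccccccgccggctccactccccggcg

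The 3 motifs were searched on both strands in the 250 bases before each start, in 27 windows of the 25 subunits with an entry and in all 32851 windows of the table. Psmb1, Psmb2, Psmb7, Psmc3, Psmd3 and Psmd7 had none. The core of the antioxidant response element, TGACNNNGC, through which the factor NRF1 (gene Nfe2l1) raises proteasome genes when the proteasome is inhibited, was found in Psmb5, Psmb6, Psmc6 and Psmd12. That is 14.8% of the subunit windows, against 11.8% of the windows of tested genes and 10.2% of all windows. In Psmb6 it ends at the base before the start. The ETS motif CCGGAAG was found in 37.0% of the subunit windows, 13.7% of the windows of tested genes and 6.91% of all windows. It stands in Psma6 above, from -132 to -126. CCAAT was found in 37.0% of the subunit windows, 35.3% of the windows of tested genes and 33.8% of all windows, and stands reversed (ATTGG) in Psmd14. The Psmc5 window holds none of the 3 motifs, and no matches overlap in the windows shown. These are matches of letters, with no measurement of binding.

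All 7 alpha subunits were called higher in KO, with a median log2 fold change of 0.165. Psma6 (chromosome 12, 55384222 to 55418454, plus strand) was at 10.28 in both KO libraries, against 10.10 and 10.09 in the WT libraries. Its groups did not overlap, and it was 1.14-fold higher (log2 fold change 0.185, SE 0.014, adjusted p = 0.0063 by limma). Psma1 and Psma5 lay close to it, at 0.185 and 0.19. Psma4, whose product forms part of the gate, was at 10.32 and 10.30 in KO and at 10.20 and 10.21 in WT. It was 1.08-fold higher (0.105, SE 0.016), near the low end of the 31. Psma3 had the smallest change among the alpha genes, at 10.11 in both KO libraries and at 10.03 and 10 in WT (0.095, adjusted p = 0.0236). Psma2 and Psma7 were at 0.165 and 0.125.

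Of the 4 beta subunits without a proteolytic site, 3 were called higher, with a median of 0.16 over the 4. Psmb2 was at 9.96 in both KO libraries and at 9.75 and 9.76 in WT, a log2 fold change of 0.205 (SE 0.015). Psmb1 and Psmb4 were at 0.175 and 0.145. Psmb3 was the exception, at 9.97 and 9.92 in KO against 9.83 and 9.87 in WT. Its groups did not overlap, but the spread within them was large beside the difference (0.095, SE 0.028, adjusted p = 0.0634).

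The 3 catalytic subunits were all called higher, with a median of 0.245. Psmb7, the trypsin-like site (chromosome 2, 38588036 to 38644087, minus strand), was at 9.55 and 9.56 in KO against 9.31 and 9.29 in WT. Psmb5, the chymotrypsin-like site and the main target of proteasome inhibitor drugs (chromosome 14, 54614119 to 54618022, minus strand), was at 9.15 and 9.11 in KO against 8.87 and 8.90 in WT. In both genes the 2 groups were well apart relative to the spread within them. These were the largest fold changes of the 31, 1.19-fold for Psmb7 (0.255, SE 0.018, adjusted p = 0.0061) and 1.19-fold for Psmb5 (0.245, SE 0.026, adjusted p = 0.00903). Psmb6, the caspase-like site, was at 10.16 in both KO libraries against 10.02 and 10.01 in WT (0.145, SE 0.014). An exon of Psmb7 overlaps an exon of Nek6 on the other strand. Nek6 was itself called higher in KO, at 9.08 and 9.23 against 8.14 and 8.02 in WT (1.075), and whether strand was used in counting is not given, so the part of Nek6 reads in the Psmb7 value was not tested.

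All 6 ATPases were called higher, from 0.125 for Psmc6 to 0.215 for Psmc1, with a median of 0.16. Psmc5 (chromosome 11, 106256154 to 106263120, plus strand) was at 10.49 and 10.50 in KO against 10.31 in both WT libraries, so the groups were far apart relative to their spread (0.185, SE 0.013, adjusted p = 0.0061). Psmc1 was at 10.60 and 10.57 in KO and at 10.35 and 10.39 in WT. Psmc3 was at 10.97 in both KO libraries and at 10.79 and 10.81 in WT (0.17). Slc39a13, which overlaps Psmc3 on the other strand, was called lower in KO (-0.265).

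Of the 11 non-ATPase subunits, 10 were called higher, with a median of 0.18. Psmd14, the deubiquitinase that cleaves ubiquitin chains off the substrate (chromosome 2, 61711694 to 61800376, plus strand), was at 10.57 in both KO libraries and 10.37 in both WT libraries. At 2 decimals the libraries of each group were equal, so its SE comes from the variance that limma borrows from other genes, and Psmd14 had the smallest p of the 31 (0.20, SE 0.013, adjusted p = 0.00585). Psmd7, its partner in the lid of the particle, was at 10.47 in both KO libraries against 10.26 and 10.29 in WT (0.195). The other lid subunits Psmd8, Psmd12, Psmd3 and Psmd11 were called higher at 0.18, 0.195, 0.135 and 0.105. Psmd13 and Psmd6, both lid subunits, had the widest spread. Psmd13 was at 10.64 and 10.57 in KO and at 10.34 and 10.41 in WT, and was called higher (0.23, SE 0.039, adjusted p = 0.0195). Psmd6 was at 10.21 and 10.15 in KO and at 10.03 and 10.09 in WT, and was not called (0.12, SE 0.035, adjusted p = 0.0609). In both genes the library numbered 1 was the higher in KO and the lower in WT. The scaffold subunits of the base were called higher as well. Psmd1 was at 11.10 and 11.09 in KO and at 10.86 and 10.89 in WT (0.22, SE 0.017), and Psmd2, which also docks ubiquitin shuttles, was at 11.75 in both KO libraries and at 11.60 and 11.61 in WT (0.145, SE 0.012). Psmd4, a receptor for ubiquitin chains, was at 10.65 and 10.66 in KO and at 10.55 and 10.53 in WT (0.115).

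**Figure D2:**
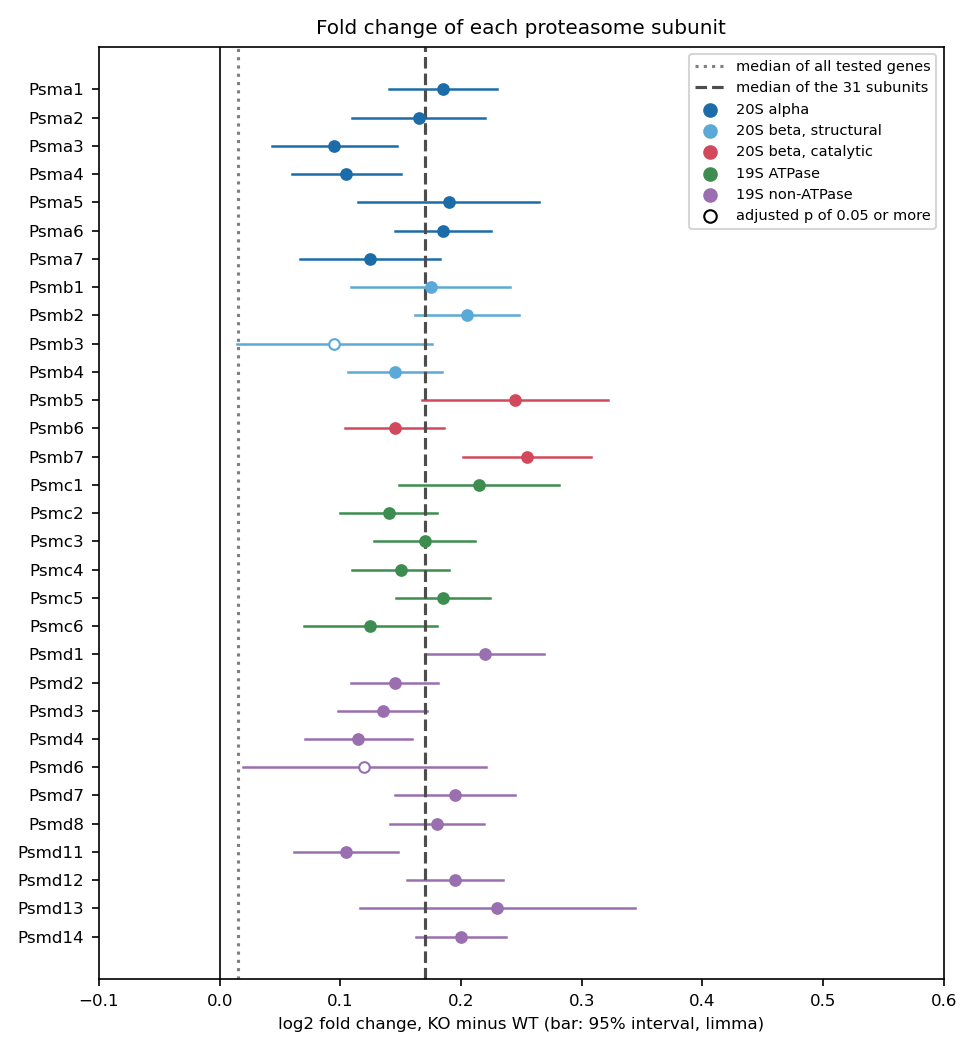
log2 fold change of KO over WT (horizontal axis) for each subunit (vertical axis, colour by subcomplex), with the 95% interval of the limma fit as a bar and open circles for the subunits that were not called. The intervals of 25 subunits hold the median of 0.17 (dashed line), and 30 lie wholly above the median of all tested genes (dotted line).

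By subcomplex, the medians were 0.17 for the 14 core subunits and 0.17 for the 17 subunits of the regulatory particle. Of these, 13 and 16 were called higher. Over all tested genes 27.1% were called higher, the share to set beside these counts and those of each group above. The 95% intervals of 25 of the 31 subunits held the common median of 0.17. Psmb7 (0.202 to 0.308) and Psmd1 (0.171 to 0.269) lay above it. Psma3, Psma4, Psmd4 and Psmd11 lay below it. These intervals come from the fit without the replicate term and are too narrow if the values were adjusted for it.

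Levels of different subunits were compared per kilobase of the principal transcript (GENCODE M21), as linear normalised values. The 31 subunits had a median of 986.5 per kilobase in KO and 858.8 in WT. The highest level was that of Psma7, at 1618 in KO and 1483 in WT, followed by Psmb6, at 1434 in KO and 1297 in WT. The catalytic subunits Psmb5 and Psmb7 were among the lowest, at 623 and 649 in KO against 526 and 543 in WT. Only Psma3 and Psma2, whose annotated principal transcripts (2846 and 2911 bases) are the longest among the core subunits, and Psmc6 in KO were lower, with 388 in KO and 364 in WT for Psma3. A level per kilobase depends on the transcript chosen.

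The size of the difference depended on a correction for the length and the mean value of transcripts. The subunits have short transcripts, with a median of 1526 bases against 2712.5 for all tested genes with a length, and high values. After a joint loess correction of the fold changes for both properties, the median of the 31 was 0.078 and 16 were called higher and 0 lower by limma, while 19.7% of the genes then tested were called higher. All 31 stayed above 0, from 0.008 for Psma4 to 0.167 for Psmb7. All 3 catalytic subunits were among the 16, with Psmb5 at 0.166 and Psmb6 at 0.066. Among the alpha, structural beta, ATPase and non-ATPase subunits, 3 of 7, 1 of 4, 3 of 6 and 6 of 11 were called.

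**Figure D3:**
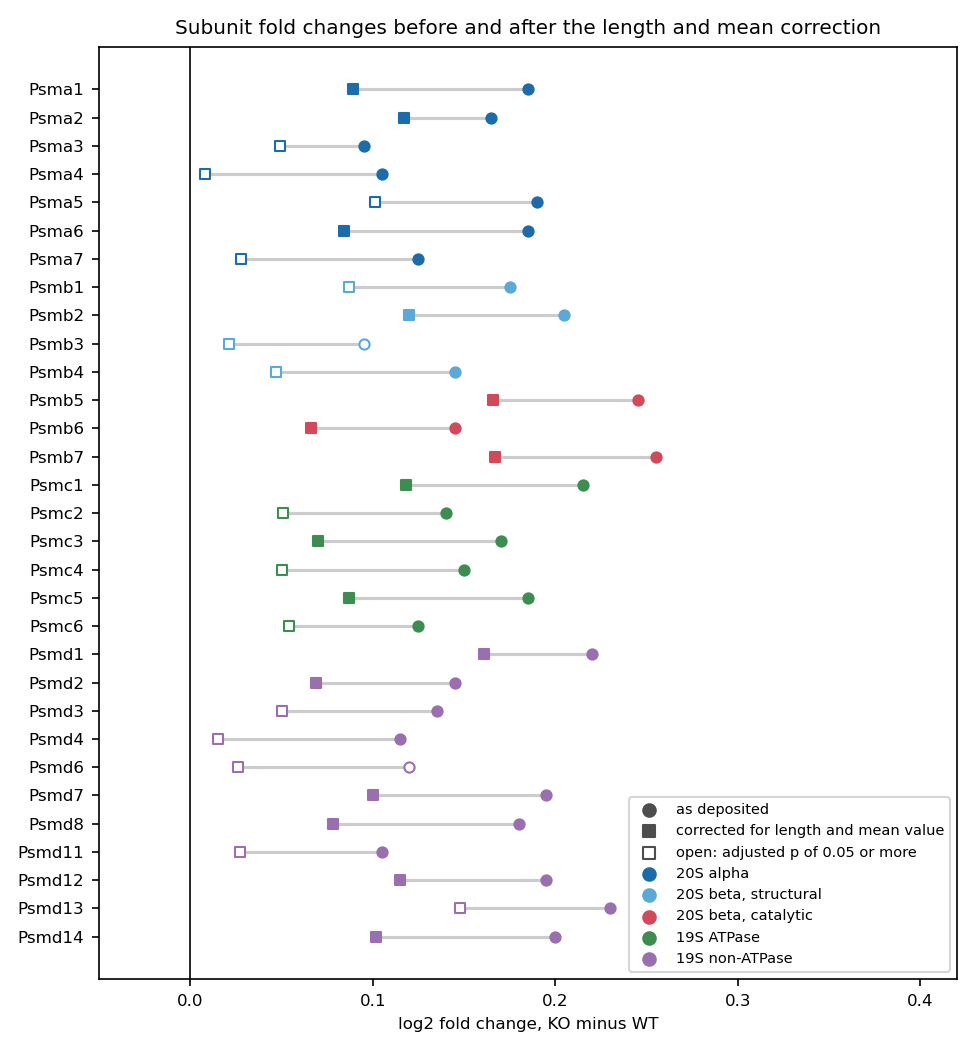
log2 fold change of KO over WT (horizontal axis) of each subunit (vertical axis, colour by subcomplex) from the deposited values (circles) and after they were corrected for length and mean value (squares). Open symbols have an adjusted p of 0.05 or more, and all squares lie left of their circles, with 16 of 31 squares filled.

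Other genes of the proteasome system were taken from 9 lists. Of their 50 tested genes, 25 passed as higher and 0 as lower, against 27.1% higher and 20.3% lower over all tested genes. Their median was 0.08 on the log2 scale, against 0.015 over all tested genes. The chaperones that assemble the core were all called higher, 5 of 5, with a median of 0.205. Pomp, the maturation factor of the core, was at 9.97 and 9.98 in KO and at 9.78 and 9.76 in WT (0.205, SE 0.017, adjusted p = 0.0065). Psmg3 and Psmg4 were at 0.265 and 0.245, Psmg1 at 0.14 and Psmg2 at 0.10. Of 3 tested chaperones of the regulatory particle, Psmd9 was called higher (0.22), while Psmd10 (0.115) and Psmd5 (0.015, overlapping groups) were not called. The remaining subunits of the particle, Adrm1 (0.065) and Sem1 (0.10), were not called either.

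All 5 genes of activators and of the inhibitor were called higher, with a median of 0.11. Psme1 and Psme2, the interferon-inducible activator that opens the core, were at 0.08 and 0.105. Psme3 and Psme4, activators found mainly in the nucleus, were at 0.155 and 0.185, and the inhibitor Psmf1 was at 0.11. Among 12 enzymes and shuttles that bind the particle, 6 were called higher and 0 lower. The deubiquitinases Uchl5 (0.315) and Usp14 (0.195) and the shuttle Rad23b (0.205) were among those 6. Ube3c, a ligase that extends ubiquitin chains on the proteasome, stood apart by its scatter, at 10 and 8.99 in KO against 10.07 and 10.68 in WT (-0.88, SE 0.44, adjusted p = 0.187). Of 4 genes for ubiquitin and the enzymes that activate it, Uba1 (0.12), the main activating enzyme, was called higher, and the polyubiquitin gene Ubb (0.01) was not called. Of 10 genes for p97, the unfoldase that extracts proteins for degradation, and its cofactors, 4 were called higher, with Vcp at 0.10 and Nploc4 at 0.17, and 6 were not called. The medians were 0.055 for the ubiquitin genes and 0.042 for the p97 genes. With 1 of 4 and 4 of 10 called, beside 27.1% of all tested genes, nothing is read from the counts of these lists.

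Of 6 genes of the NRF1 route, 2 were called higher and 0 lower, with a median of 0.028. Beside 27.1% higher and 20.3% lower over all tested genes, nothing is read from this count. Nfe2l1 itself was at 11.16 and 11.22 in KO and at 11.27 and 11.25 in WT, both KO libraries below both WT libraries, and was not called (-0.07, SE 0.027, adjusted p = 0.11). Ddi2, the protease that cuts NRF1 loose, was not called (-0.005). Ngly1, the glycanase that processes NRF1, was at 10.52 in both KO libraries and at 10.13 and 10.14 in WT, 1.31-fold higher (0.385, SE 0.014, adjusted p = 0.00434). Maff, a small partner factor, was at 8.29 and 8.44 in KO and at 7.62 and 7.49 in WT, 1.75-fold higher (0.81, SE 0.079, adjusted p = 0.00809). The other small partners Mafg (0.05) and Mafk (0.005) were not called.

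**Figure D4:**
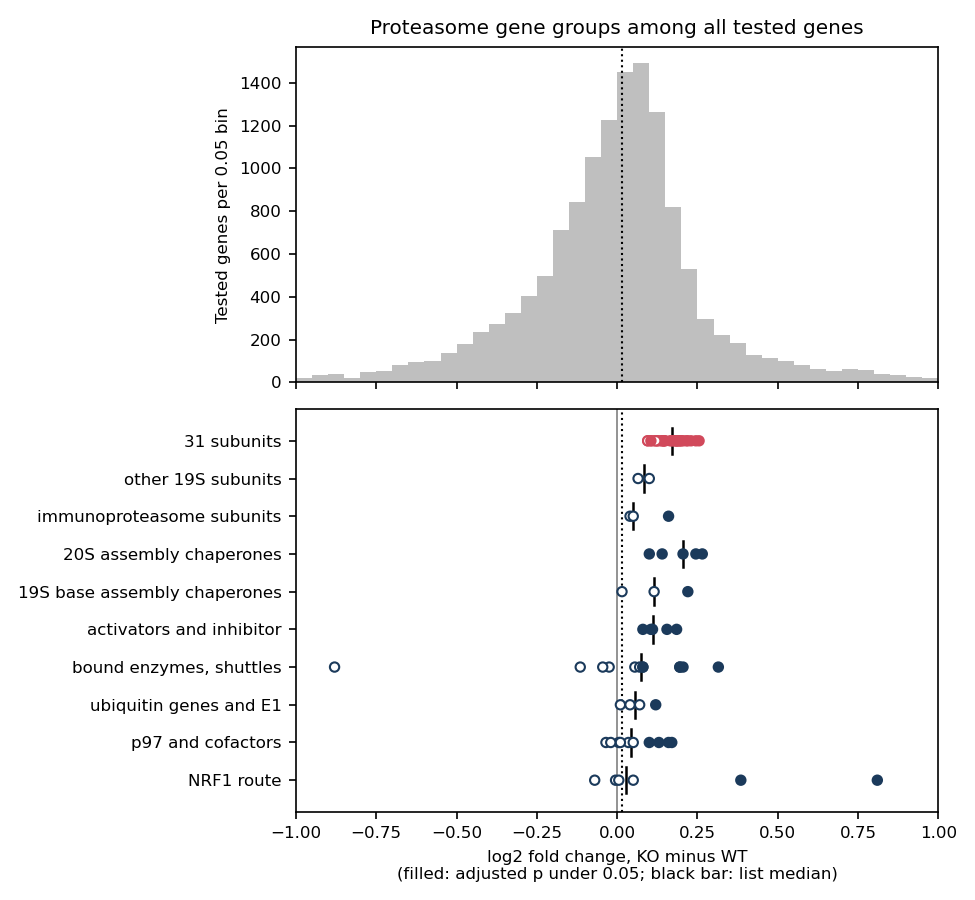
Upper panel, number of tested genes per bin of log2 fold change of KO over WT (276 of 13685 lie beyond the axis). Lower panel, each tested gene of the 31 subunits (red) and of 9 other lists of the proteasome system (blue) on the same axis, filled where called, with black bars at list medians. The subunits sit between 0.095 and 0.255, to the right of the dotted line at the median of all tested genes.

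Of the 3 tested immunoproteasome subunits, 1 was called. With 27.1% of all tested genes called higher, nothing is read from this count. Psmb10 was called higher, at 10.16 and 10.19 in KO against 10.04 and 9.99 in WT (0.16, adjusted p = 0.0174). Psmb8 (0.04, adjusted p = 0.202) and Psmb9 (0.05, adjusted p = 0.265) were not called. The log2 ratio of each constitutive catalytic subunit to its immunoproteasome counterpart was taken within each library. For Psmb5 over Psmb8 it was -1.32 and -1.38 in KO and -1.59 and -1.52 in WT. For Psmb6 over Psmb9 it was -0.51 and -0.54 in KO and -0.65 and -0.59 in WT. For Psmb7 over Psmb10 it was -0.61 and -0.63 in KO and -0.73 and -0.70 in WT. In each of the 3 pairs both KO ratios lay above both WT ratios, by 0.205, 0.095 and 0.095 on average. Among single tested genes, 39.9% had both KO libraries above both WT libraries, and no such share was taken over ratios. With 2 against 2 libraries an exact two-sided permutation test cannot go below p = 0.333, so it says nothing about these ratios, which are given as values only. The thymus-specific subunit Psmb11 and the testis-specific Psma8 did not pass the filter on low values, with Psma8 at 1.35 to 1.5.

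**Figure D5:**
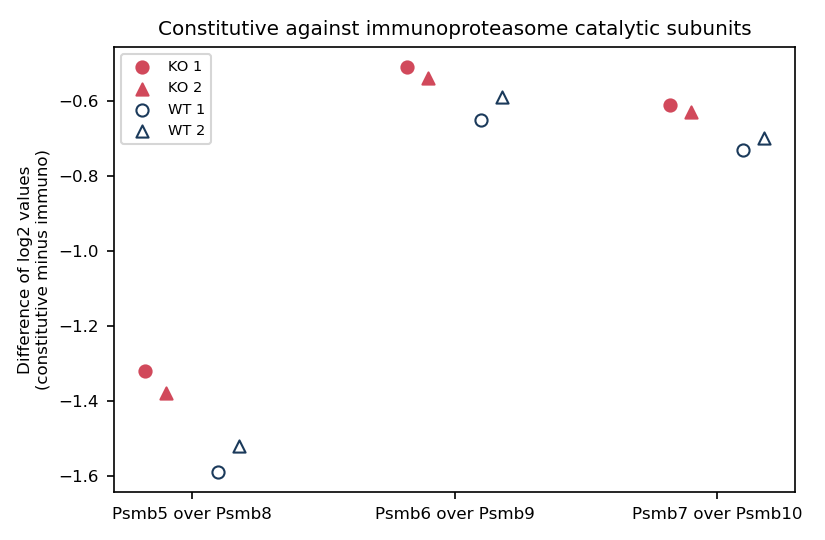
Difference of log2 values between a constitutive catalytic subunit and its immunoproteasome counterpart (vertical axis) in each KO and WT library, for 3 pairs (horizontal axis). Transcript lengths are not taken into account, so only differences between libraries within a pair can be read. In each pair both KO points lie above both WT points, as do the values of 39.9% of single tested genes.

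The subunit genes lie on 14 chromosomes, with at most 6 on 1 of them (chromosome 11). For 8 of the 31, a stretch of at least 300 bases at 95% identity or more stands in another annotated gene, and 8 share an exon overlap with another gene, 3 of them both. Reads could be split or shared in these genes. On the deposited log2 scale, which is not per length, the copies found in the table reached at most 4.94 (Gm6542, a copy of Psma4), except for A730017L22Rik, which matches Psmd11, at 6.96 and 6.98 in KO and 7.39 and 7.44 in WT. In the 18 subunits with neither, 17 were called higher in KO, beside 27.1% of all tested genes. Their median log2 fold change was 0.17, the same as over all 31. With the replicate number as a term, 0 subunits were called.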

How the data were processed

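Poly-A RNA of sorted Treg was sequenced in 2 KO and 2 WT libraries, made with a column kit and an Illumina TruSeq kit, per the labels' protocols. The authors deposited log2 values of normalised counts, per the file headers and name. STAR, DESeq2 and the build mm10 are listed, per the submitters' processing notes. What annotation, counter, strand setting and transform they applied is not given in the sources used here. Low values had almost no spread, so fold changes of low genes are understated. Depth is unknown, no reads were recovered and no count model was run.

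Genes with a linear value of at least 10 in at least 2 libraries were tested (13685 of 28334 rows). A limma 3.58.1 fit (R 4.3.3) set KO against WT with a variance trend and no term but genotype, which leaves 2 residual degrees of freedom. Its two-sided p-values were adjusted by the Benjamini-Hochberg method across the 13685 genes. Called means an adjusted p under 0.05. SDs and SEs are on the log2 scale.

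The text names all 31 subunits and genes of fixed pathway lists. Of the ubiquitin list, 2 genes are not reported here and were left out of its counts and medians. Subunits and lists were chosen with earlier results of these data known. Lengths (APPRIS principal transcripts), positions, overlaps and copies (BLAST) came from GENCODE M21, and promoters from RefSeq (GRCm38.p6), for 25 of 31 subunits. Matching was by symbol (Python 3.11.15). The loess span was 0.4, over 13330 genes with a length. Of the rows, 23 had a number for a symbol and 19 symbols were repeated. These were tested but not named. Alternatives covered the replicate term, filters, a pseudocount, scaling, variance priors, left-out libraries and the length and mean correction. A crossed pairing was added after seeing the data.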

Additional observations from a re-analysis of the deposited data

How the results depend on the processing

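The 31 subunits kept a log2 fold change above 0 under all 14 alternatives, from 0.008 to 0.265. With 29 subunits and 6481 genes called as reported, the replicate block left 0 and 0 called, and leaving out 1 library left 0 subunits and 0 genes, with the subunit median at 0.155 to 0.17. Each of these fits has 1 residual degree of freedom, and a library left alone in its group is assumed to vary like the other group. The correction for length and mean value left 16 subunits called and a median of 0.078, with 19.7% of the genes then tested called higher. The crossed pairing, added after the data were seen, called 31 subunits and 9728 genes. Its term follows deviations found in these same values, so nothing is read from its calls. Quantile normalization gave 26 called subunits and a median of 0.129. Of the 13685 tested genes it called 3029 higher, with a median of -0.004 over all of them. Median centring gave 28 called subunits and a median of 0.14, with 2983 genes called higher and a median of -0.015 over all tested genes. Median centring sets the library medians equal, which were 8.80 in each KO and 8.77 in each WT library. It therefore lowers every fold change by the same amount. The cause of the shift under quantile normalization was not tested. The other alternatives called 28 or 29 subunits. Over all genes they called from 3215 (of 9867 tested) to 4610 (of 28334 tested) higher. Whether the replicate numbers pair the libraries was not tested. Deviations from the group means correlated at -0.908 between libraries of the same number and 0.908 between crossed numbers. With 2 libraries per group the second value is the first with its sign turned, so they are a single observation. An adjustment for replicate number would itself make deviations of the same number opposite. The correlations therefore cannot tell whether the numbers pair the libraries. Calls lost under the replicate block do not show a weaker difference. Without read totals, counting error could not be given.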
